A study of Mus musculus with 18 samples.

Results

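The genes described here are the 34 members of the bile acid programme of the liver, which covers synthesis, conjugation, transport and sensing. They were chosen by their known roles, with earlier results of these data known, so counts of them are descriptions. Each was matched by its symbol to a row of the deposited table of 54752 genes. Of the 34, 33 passed the filter on low counts and were tested. Slc51b did not pass it. Liver RNA was sequenced from 18 male C57BL/6 mice, which were 6 weeks old when purchased, with 6 mice and 6 libraries in each of 3 groups. Cirrhosis-PTH mice were injected intraperitoneally with 10% carbon tetrachloride (CCl4, a solvent that injures hepatocytes) in corn oil, 2 times a week at 10 µl per g, and were given PTH by mouth every day at 0.25 mg per g. PTH here stands for Pien Tze Huang, a remedy of traditional Chinese medicine, and has nothing to do with the hormone of that abbreviation. Cirrhosis mice were injected with CCl4 on the same schedule and took double distilled water by mouth in place of PTH. Control mice were injected with corn oil alone in the same volume and also took the water. All livers were taken after 12 weeks. No group received PTH without CCl4, so an action of PTH outside injured liver was not measured.

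Bile acids are made from cholesterol in hepatocytes. The classic pathway opens with Cyp7a1, the rate-limiting 7α-hydroxylase, and Cyp8b1 in that pathway sets how much cholic acid is made, while the alternative pathway runs through the sterol 27-hydroxylase Cyp27a1 and the oxysterol 7α-hydroxylase Cyp7b1. Conjugated bile acids leave across the canalicular membrane through Abcb11, are reabsorbed in the ileum and return to hepatocytes through Slc10a1 and the Slco carriers. The receptor FXR (Nr1h4) senses them and induces the corepressor SHP (Nr0b2), and intestinal FGF15 acts on the hepatocyte receptor pair of Fgfr4 and β-Klotho (Klb), and both arms lower Cyp7a1.

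Libraries held 62.5 to 112 M counts, of which 31.4% to 60.8% fell on loci that collect ribosomal RNA reads. Control replicates 7 and 8 had the fewest counts outside those loci, so results that rest on them are given with and without them. Levels are given in CPM, meaning counts per M after TMM scaling of each library's total. A gene was called when its adjusted p was under 0.05 in edgeR's quasi-likelihood test over all 21914 tested genes, with Benjamini-Hochberg adjustment. Every adjusted p of a gene below is from that test, unless another method, filter or set of libraries is named with it. Fold changes are log2 values with their standard error (SE). In bulk liver RNA, fewer hepatocytes and less RNA per hepatocyte cannot be told apart. The summed level of 8 general hepatocyte markers, albumin among them, ran from 44389 to 47450 CPM in Cirrhosis-PTH livers, from 30399 to 49920 CPM in Cirrhosis livers and from 45908 to 62484 CPM in Control livers. None of the 8 was without a count in any group.

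Promoters are shown for the sterol transporter genes Abcg5 and Abcg8, which share a start region, and for the members whose start region held a match to the antioxidant response element, the site of the stress factor Nrf2. RefSeq windows on GRCm38.p6, from 250 bases before to 50 bases after a start, were found for 26 of the 34 members, in 32 windows, and not for Baat, Cyp7a1, Abcc3, Slc27a5, Cyp7b1, Atp8b1, Cyp39a1 and Amacr. By their RefSeq starts, Abcg5 and Abcg8 lie head to head on chromosome 17, 110 bases apart. Their windows have 209 bases in common, which are in capitals. Annotated Abcg8 begins elsewhere, at 84676302 on the plus strand, inside annotated Abcg5 (84658234 to 84683011). The Abcg5 window is chr17:84682962-84683261 on the minus strand, and the Abcg8 window is chr17:84682871-84683170 on the plus strand.
Abcg5: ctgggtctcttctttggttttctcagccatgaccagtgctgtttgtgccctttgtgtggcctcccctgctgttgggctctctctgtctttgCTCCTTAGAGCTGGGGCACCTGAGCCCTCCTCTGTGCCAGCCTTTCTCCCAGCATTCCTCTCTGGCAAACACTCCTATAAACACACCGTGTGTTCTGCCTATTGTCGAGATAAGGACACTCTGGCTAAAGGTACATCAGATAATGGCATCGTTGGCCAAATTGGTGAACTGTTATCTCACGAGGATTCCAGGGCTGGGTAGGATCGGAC
Abcg8: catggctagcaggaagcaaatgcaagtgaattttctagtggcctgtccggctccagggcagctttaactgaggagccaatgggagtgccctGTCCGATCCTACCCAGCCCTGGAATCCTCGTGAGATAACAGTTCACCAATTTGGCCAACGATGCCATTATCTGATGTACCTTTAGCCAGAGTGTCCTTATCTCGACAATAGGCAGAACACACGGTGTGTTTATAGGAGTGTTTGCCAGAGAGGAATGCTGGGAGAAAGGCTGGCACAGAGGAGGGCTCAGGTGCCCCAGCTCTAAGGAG
The Cyp8b1 window, chr9:121916256-121916555 on the minus strand, held the HNF4A motif CAAAGTCCA, which starts 67 bases before the gene's start, and an antioxidant element TGACNNNGC, where N is any base, on the reverse strand 151 bases before the start. Both are in capitals.
Cyp8b1: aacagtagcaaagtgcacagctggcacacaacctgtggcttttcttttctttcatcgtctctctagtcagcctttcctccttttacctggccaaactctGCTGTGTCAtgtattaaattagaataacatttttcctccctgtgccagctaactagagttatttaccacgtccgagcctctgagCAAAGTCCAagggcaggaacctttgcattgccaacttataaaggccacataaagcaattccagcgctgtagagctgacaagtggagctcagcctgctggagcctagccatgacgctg
Both Abcc4 windows on the minus strand of chromosome 14 held an antioxidant element, in capitals, 25 bases before the annotated start in chr14:118706170-118706469 and 23 bases before an inner start in chr14:118676882-118677181.
Abcc4, outer start: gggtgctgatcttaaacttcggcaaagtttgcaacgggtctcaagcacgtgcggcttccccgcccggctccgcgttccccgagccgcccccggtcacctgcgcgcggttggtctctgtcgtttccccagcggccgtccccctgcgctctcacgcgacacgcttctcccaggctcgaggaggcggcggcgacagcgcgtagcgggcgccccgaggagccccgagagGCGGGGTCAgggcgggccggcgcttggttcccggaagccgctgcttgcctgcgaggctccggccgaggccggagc
Abcc4, inner start: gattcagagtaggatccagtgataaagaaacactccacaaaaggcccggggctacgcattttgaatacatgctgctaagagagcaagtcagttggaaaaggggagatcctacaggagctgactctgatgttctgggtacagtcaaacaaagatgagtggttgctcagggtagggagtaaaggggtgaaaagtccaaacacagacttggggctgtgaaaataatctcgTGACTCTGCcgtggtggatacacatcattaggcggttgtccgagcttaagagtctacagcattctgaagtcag
The same element, in capitals, is shown with 20 bases on each side for Scp2 (chr4:108118525-108118573, minus strand), Acox2 (chr14:8259004-8259052, minus strand), Abcc2 (chr19:43782190-43782238, plus strand) and Klb (chr5:65348324-65348372, plus strand). Each of these elements lies at an inner start, inside its annotated gene. On the minus strand, annotated Scp2 begins at 108144998 and annotated Acox2 at 8259353. On the plus strand, annotated Abcc2 begins at 43782192 and annotated Klb at 65348314.
Scp2: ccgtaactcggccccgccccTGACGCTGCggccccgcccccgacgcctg
Acox2: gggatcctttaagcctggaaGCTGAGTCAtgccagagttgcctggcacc
Abcc2: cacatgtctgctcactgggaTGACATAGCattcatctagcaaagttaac
Klb: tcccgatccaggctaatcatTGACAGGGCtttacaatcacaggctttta
On both strands, the antioxidant element was found in 6 of the 26 members and in 12.4% of all 32851 RefSeq windows of this length, and a member with several windows had more chances of a match. The HNF4A motif was found in Cyp8b1 alone among the 26 and in 0.475% of all windows. The LRH-1 motif CAAGGTCA, the FXR core GGTCANTGA and the D-box TTATGTAA were in no member's window, against 1.56%, 0.84% and 0.938% of all windows. The E-box CACGTG was found in 3 members, Abcc4, Nr0b2 and Slc51a, and in 7.15% of all windows. The LRH-1 motif and the FXR core share the letters GGTCA. A match describes the letters only.

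Bile acid genes were mostly lower in Cirrhosis than in Control and mostly higher in Cirrhosis-PTH than in Cirrhosis. In Cirrhosis against Control, 26 of the 33 tested members fell and 3 rose, where 25% of all tested genes fell and 25.5% rose. The median log2 change of the members was -1.12, against 0.02 over all tested genes. The 3 that rose were Slc10a2, Abcc4 and Cyp39a1. In 22 of the members all Cirrhosis libraries lay below all Control libraries (14.7% of all tested genes), and in 2 they lay above (15.6%).

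In Cirrhosis-PTH against Cirrhosis, 25 of the 33 members rose and 4 fell, where 20.1% of all tested genes rose and 18.6% fell. The 4 that fell were Slc10a2, Abcc4, Atp8b1 and Gpbar1. The members' median was 0.95, against -0.003 over all genes. The libraries lay apart in 20 members upward (11.8% of all genes) and in 1 downward, Abcc4 (11%). The comparison shares its 6 Cirrhosis libraries with the one above, so opposite signs in the pair are not independent of each other. Leaving out Cirrhosis replicate 1 or 6, or Cirrhosis-PTH replicate 3 or 5, brought the 4 lower members to 2.

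In Cirrhosis-PTH against Control, 8 of the 33 members were called lower and 2 higher, where 2.48% of all genes were lower and 6.34% higher. The members' median was -0.12, against 0.01 over all genes. The 8 were Hsd3b7, Cyp8b1, Akr1c6, Cyp7b1, Slco1a1, Abcb11, Abcg8 and Nr0b2, and the 2 were Slc10a2 and Cyp39a1. In 5 members all Cirrhosis-PTH libraries lay below all Control libraries (1.4% of all genes), and in 2 they lay above (3.07%). Without Control replicates 7 and 8, 6 members were lower, since Cyp8b1 and Nr0b2 no longer passed. The 23 other members did not pass, which does not show that they were alike in the 2 groups.

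**Figure D1:**
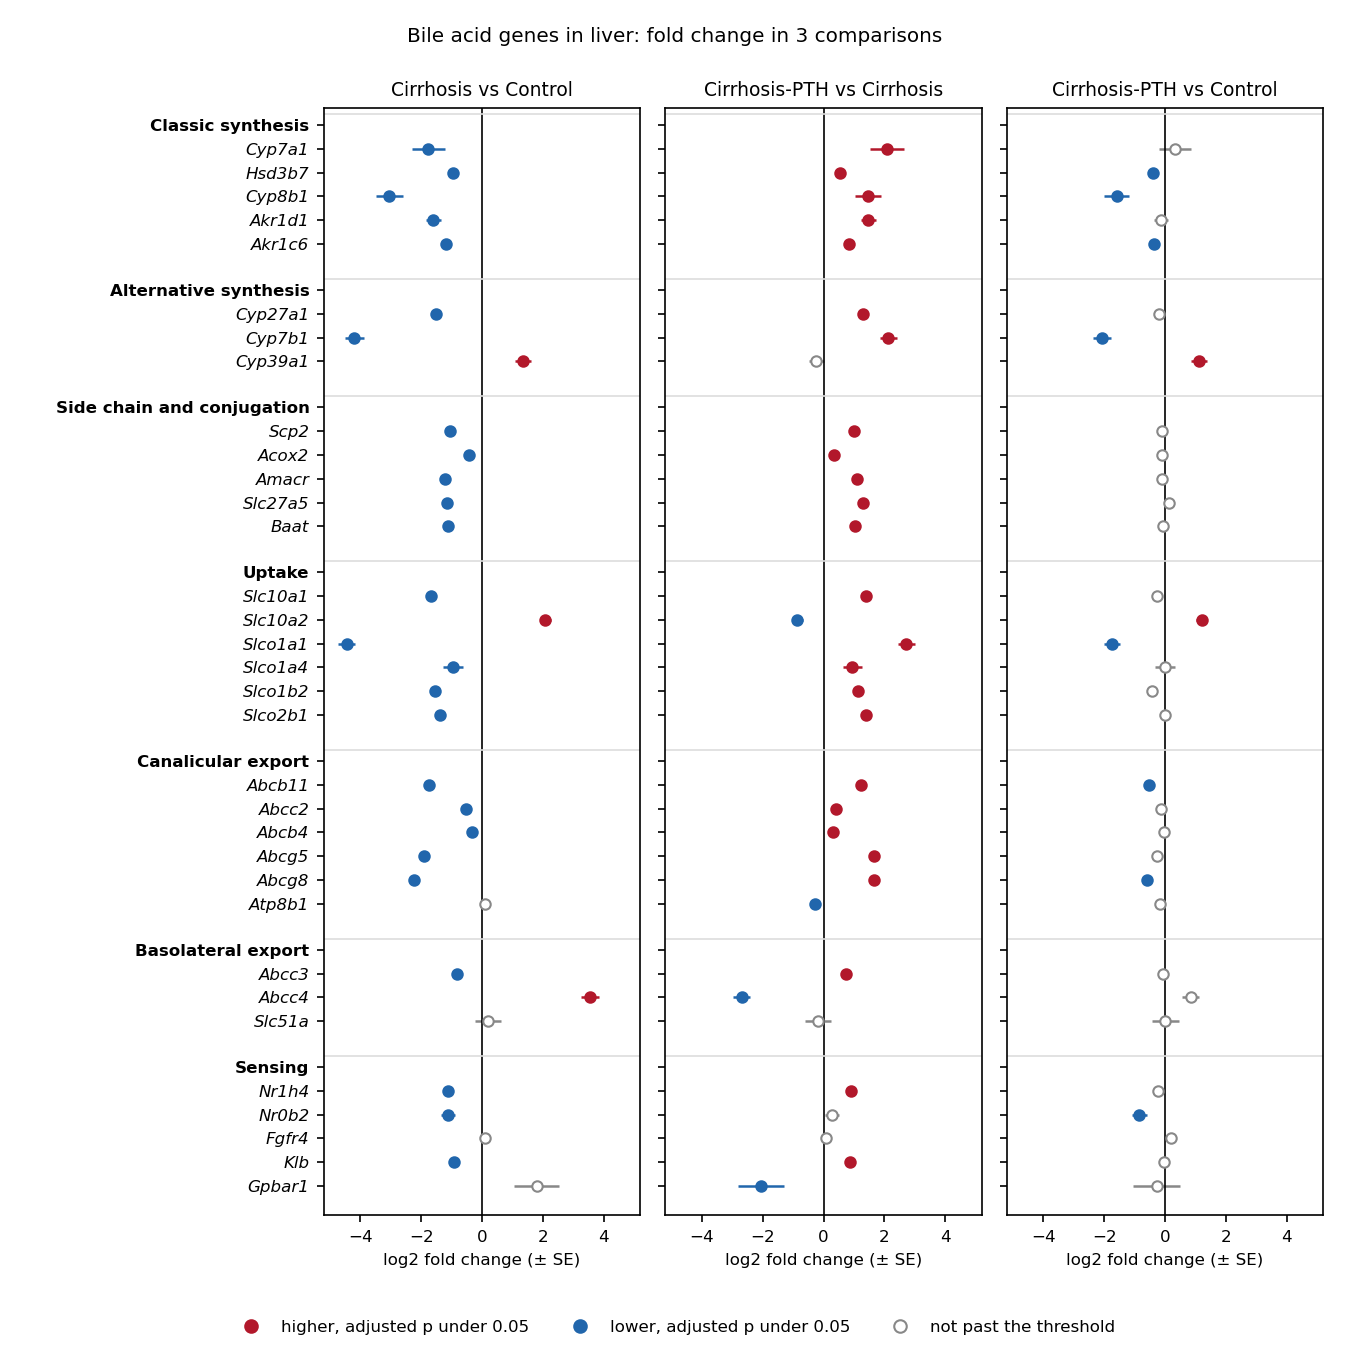
Log2 fold change with its SE for the 33 tested bile acid genes, grouped by role, in each of 3 comparisons of 6 mice against 6. Filled points passed an adjusted p of 0.05 (red higher, blue lower), and open points did not. In the first panel 26 points are filled blue, in the second 25 are filled red, and in the third 23 are open.

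Against the general hepatocyte markers, 13 of the 33 members changed more steeply downward than any of the 8 markers in Cirrhosis against Control, where the markers' log2 changes ran from -1.19 to -0.12, and 7 lay above all of them. In Cirrhosis-PTH against Cirrhosis the markers ran from -0.06 to 0.96, with 16 members above all of them and 6 below. In Cirrhosis-PTH against Control they ran from -0.37 to 0.07, with 8 members below and 6 above. How many of all tested genes lay outside these marker ranges was not counted, so an excess among the members was not measured. Markers of hepatocytes around the central vein and around the portal tract moved with the members. Of 8 pericentral markers, 8 fell in Cirrhosis against Control and 8 rose in Cirrhosis-PTH against Cirrhosis, and their summed level was 3774 to 4989 CPM in Cirrhosis-PTH, 389 to 721 CPM in Cirrhosis and 4450 to 7287 CPM in Control. Of 8 periportal markers, 6 fell and 7 rose in the same comparisons, and their summed level was 7310.3 to 10321 CPM in Cirrhosis-PTH, 3284 to 6887 CPM in Cirrhosis and 6332 to 9207 CPM in Control. The part of either zone in the members' changes was not tested.

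All 5 enzymes of the classic pathway fell in Cirrhosis and rose in Cirrhosis-PTH against Cirrhosis, with the largest fall in Cyp8b1 and the largest rise in Cyp7a1. Cyp7a1, which lies on chromosome 4 from 6265612 to 6275633 (GRCm38), had a lowest level of 128, a median of 205 and a highest level of 346 CPM in Cirrhosis-PTH, against 4.05, 38.9 and 135 CPM in Cirrhosis and 88.2, 183 and 243 CPM in Control. Cirrhosis livers overlapped both other groups through 1 mouse, replicate 3, which held the 135 CPM. The log2 change was -1.77 ± 0.55 in Cirrhosis against Control (adjusted p = 0.014) and 2.1 ± 0.56 in Cirrhosis-PTH against Cirrhosis (adjusted p = 0.0067). Without Cirrhosis replicate 3 the changes were -2.34 and 2.67. Cirrhosis-PTH against Control gave 0.33 ± 0.54 (adjusted p = 0.78).

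Cyp8b1, the 12α-hydroxylase that sets how much cholic acid is made, had 28.5, 67.9 and 104 CPM in Cirrhosis-PTH (lowest, median and highest), 7.46, 21.6 and 53.7 CPM in Cirrhosis and 148, 191 and 254 CPM in Control. No library of either CCl4 group reached the lowest Control level, and the Cirrhosis-PTH and Cirrhosis libraries overlapped. The gene fell by 3.05 ± 0.44 on the log2 scale in Cirrhosis against Control (adjusted p = 2.3e-05) and rose by 1.46 ± 0.41 in Cirrhosis-PTH against Cirrhosis (adjusted p = 0.01). Unlike Cyp7a1, it was called lower in Cirrhosis-PTH than in Control, at -1.58 ± 0.41 (adjusted p = 0.026), although the difference between the 2 genes was not tested. That call did not hold without Control replicates 7 and 8 (adjusted p = 0.072), without Cirrhosis-PTH replicate 3 (adjusted p = 0.062) or without Cirrhosis-PTH replicate 6 (adjusted p = 0.056).

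Hsd3b7, the steroid dehydrogenase that acts after 7α-hydroxylation, averaged 144 ± 17.5 CPM in Cirrhosis-PTH, 98.6 ± 7.68 CPM in Cirrhosis and 192 ± 34.1 CPM in Control (SD, n = 6 each). It was lower in Cirrhosis-PTH than in Control by a log2 change of -0.41 ± 0.10 (adjusted p = 0.016), and without Control replicate 2 the adjusted p was 0.0502. Exons of 2 other annotated genes cover 99.2% of its exon bases. Gm49388, on the same strand, had no count in any library, and 9430064I24Rik, on the opposite strand, had at most 3.29 CPM. Akr1d1, the 5β-reductase, changed by -1.60 ± 0.25 in Cirrhosis against Control and 1.47 ± 0.25 in Cirrhosis-PTH against Cirrhosis. Akr1c6, a hydroxysteroid dehydrogenase of the aldo-keto reductase family, averaged 407 ± 23.4 CPM in Cirrhosis-PTH, 229.9 ± 12.7 CPM in Cirrhosis and 524 ± 81.9 CPM in Control (SD, n = 6 each), and was also called lower in Cirrhosis-PTH than in Control, at -0.36 ± 0.09 (adjusted p = 0.014).

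In the alternative pathway, Cyp7b1 had the steepest fall of the members but for Slco1a1, and Cyp39a1 went the other way. Cyp7b1, the oxysterol 7α-hydroxylase, had 20.5, 40.9 and 75.5 CPM in Cirrhosis-PTH (lowest, median and highest), 7.95, 9.78 and 13.1 CPM in Cirrhosis and 79.5, 209 and 234 CPM in Control. No pair of groups overlapped, with Cirrhosis-PTH between the other groups. The log2 changes were -4.21 ± 0.31 in Cirrhosis against Control (adjusted p = 1.1e-08), 2.14 ± 0.29 in Cirrhosis-PTH against Cirrhosis (adjusted p = 1.5e-05) and -2.07 ± 0.29 in Cirrhosis-PTH against Control (adjusted p = 2.6e-04). Cyp27a1, the mitochondrial 27-hydroxylase that feeds it, averaged 178 ± 25.3 CPM in Cirrhosis-PTH, 71.8 ± 11.9 CPM in Cirrhosis and 205 ± 27.4 CPM in Control (SD, n = 6 each). It changed by -1.52 ± 0.12, 1.31 ± 0.12 and -0.21 ± 0.12 in the same 3 comparisons, and the last did not pass (adjusted p = 0.29).

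Cyp39a1, which hydroxylates 24-hydroxycholesterol at the 7α position, had 12.6, 16.2 and 20.7 CPM in Cirrhosis-PTH, 13.5, 16.5 and 29.4 CPM in Cirrhosis and 5.57, 6.26 and 14.1 CPM in Control. The 14.1 CPM belonged to Control replicate 1, and the other 5 Control livers lay below every liver given CCl4. The gene rose by 1.36 ± 0.26 in Cirrhosis against Control (adjusted p = 2.5e-04) and was higher in Cirrhosis-PTH than in Control by 1.12 ± 0.26 (adjusted p = 0.0097). Cirrhosis-PTH against Cirrhosis gave -0.23 ± 0.25 (adjusted p = 0.51).

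The 5 members of side chain shortening and conjugation all fell in Cirrhosis and all rose in Cirrhosis-PTH against Cirrhosis, and none was called in Cirrhosis-PTH against Control. Slc27a5, the bile acyl-CoA synthetase, had 442, 534 and 647 CPM in Cirrhosis-PTH (lowest, median and highest), 186, 213 and 264 CPM in Cirrhosis and 367, 492 and 578 CPM in Control. The Cirrhosis livers lay apart below both other groups, which overlapped. Its log2 changes were -1.15 ± 0.11 in Cirrhosis against Control, 1.29 ± 0.11 in Cirrhosis-PTH against Cirrhosis (adjusted p = 2.4e-08) and 0.15 ± 0.11 in Cirrhosis-PTH against Control (adjusted p = 0.48). Amacr, the racemase that prepares the side chain for β-oxidation, had 69.8, 82.5 and 92.6 CPM in Cirrhosis-PTH, 24.4, 39.7 and 50.1 CPM in Cirrhosis and 77.4, 89.1 and 92.7 CPM in Control, and fell by 1.21 ± 0.13 in Cirrhosis against Control (adjusted p = 1.0e-07).

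Baat, the amidating enzyme that joins bile acids to taurine or glycine, averaged 120.4 ± 10.0 CPM in Cirrhosis-PTH, 58.8 ± 13.9 CPM in Cirrhosis and 127 ± 10.7 CPM in Control (SD, n = 6 each). Scp2, which encodes the peroxisomal thiolase of the last side chain step together with sterol carrier protein, averaged 1803 ± 232 CPM in Cirrhosis-PTH, 909 ± 123 CPM in Cirrhosis and 1909 ± 155 CPM in Control. Per kb of exon it was the most abundant member in Control, with a median of 564 CPM per kb, against 43.8 CPM per kb for Cyp7a1. Acox2, the branched-chain acyl-CoA oxidase, changed least in the group, at -0.44 ± 0.12 in Cirrhosis against Control and 0.35 ± 0.12 in Cirrhosis-PTH against Cirrhosis (adjusted p = 0.024). The second call did not hold when Cirrhosis replicate 1, 4 or 5 or Cirrhosis-PTH replicate 1, 4 or 6 was left out, with adjusted p-values from 0.055 to 0.065.

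**Figure D2:**
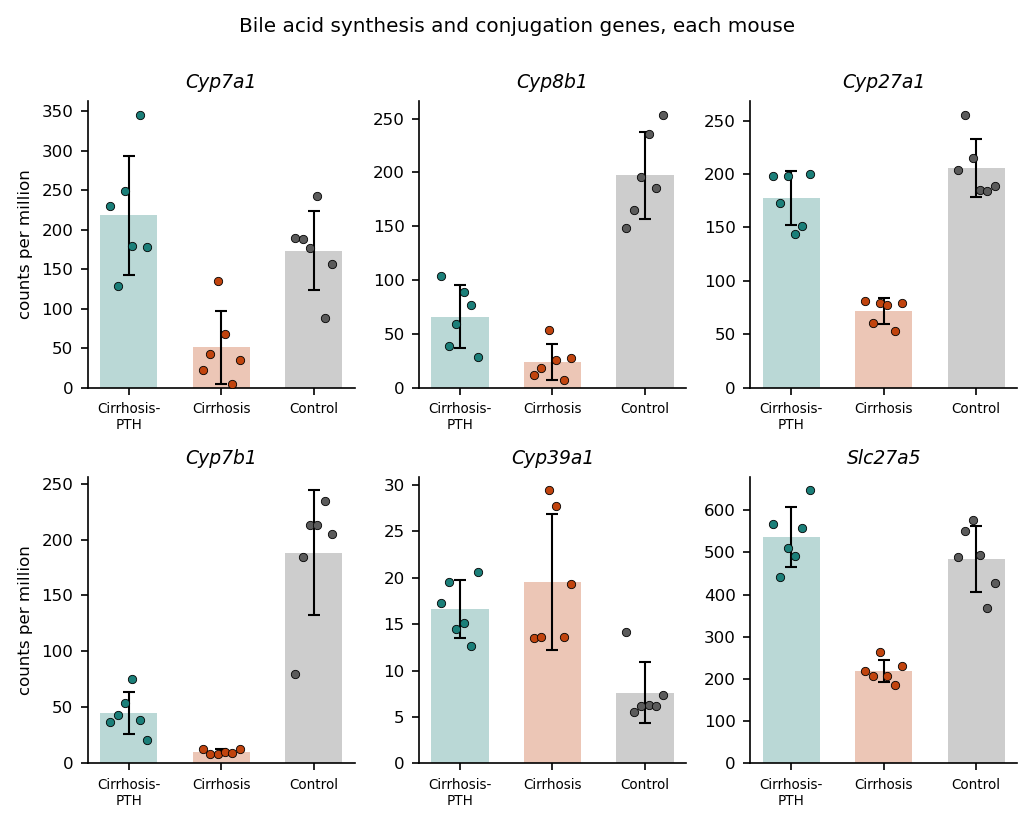
CPM of 6 synthesis and conjugation genes in every mouse (points), with the group mean (bar) and SD (line), n = 6 per group, and a linear axis from 0 for each gene. Cyp7a1 and Slc27a5 of Cirrhosis-PTH mice overlap the Control range, Cyp8b1 and Cyp7b1 of Cirrhosis-PTH mice lie below it, and Cyp39a1 is higher in both CCl4 groups.

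Cyp7a1 varied between Cirrhosis livers more than any other member. The 6 Cirrhosis mice had 22.3, 42.7, 135, 67.8, 4.05 and 35.1 CPM, and the SD of log2(CPM + 0.5) was 1.67, wider than in 99.9% of the 14096 genes over 1 CPM in that group. Cyp8b1 had the second widest SD of the members there, 0.98, while the median gene had 0.184. In Cirrhosis-PTH and Control the SD of Cyp7a1 was 0.49 in each. The Cirrhosis mouse with the lowest Cyp7a1, replicate 5, also had the lowest Cyp8b1, 7.46 CPM, and the highest Abcc4, 82.3 CPM. This liver was the lowest of its group in 18 of the 33 tested members, Akr1d1, Slc27a5, Slc10a1 and Nr1h4 among them. Replicate 3, with the highest Cyp7a1, was the highest of its group in 17 of the 33. How often these livers were lowest or highest over all tested genes was not counted.

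Among the 6 Cirrhosis livers, Cyp8b1 followed Cyp7a1 with Pearson's r = 0.93 and Spearman's rho = 0.83. The exact permutation p was 0.011 for r and 0.058 for rho, two-sided, and neither passed adjustment over the 9 relations computed (adjusted p = 0.10 and 0.53). Without the 2 mice farthest from the median of Cyp7a1, r was 0.73 over 4 mice. The same relation gave r = 0.52 and rho = 0.49 in Cirrhosis-PTH (exact permutation p = 0.30 and 0.36) and r = 0.09 and rho = -0.20 in Control (exact permutation p = 0.90 and 0.71). Relations of Cyp7a1 with Nr0b2 and with the circadian regulator Dbp were the other 6, and their smallest adjusted p for r was 0.16 by exact permutation.

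**Figure D3:**
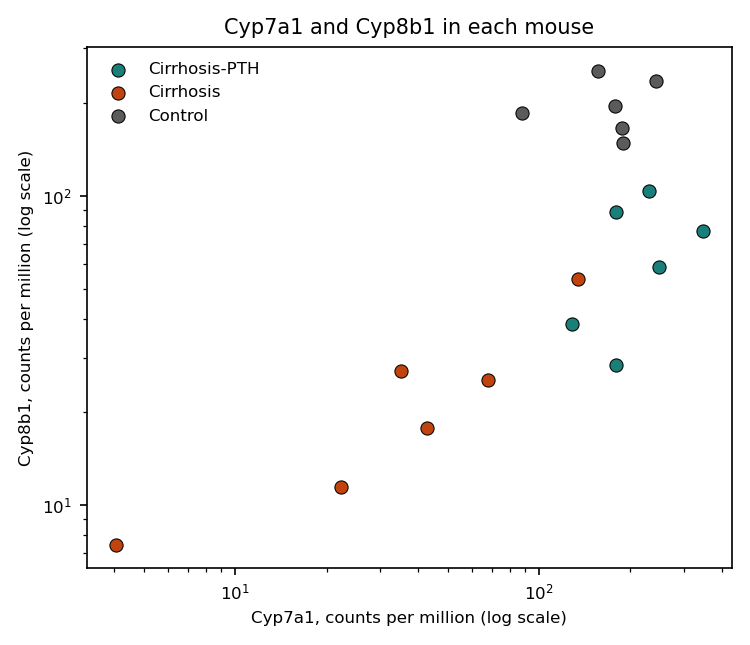
Cyp8b1 against Cyp7a1 in each of the 18 mice, both in CPM on log axes, coloured by group. Cirrhosis mice spread from 4.05 to 135 CPM of Cyp7a1, and Cirrhosis-PTH mice have Cyp7a1 levels of 128 CPM or more with Cyp8b1 levels of at most 104 CPM, below all Control mice.

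Of the 6 uptake carriers, 5 fell in Cirrhosis and rose in Cirrhosis-PTH against Cirrhosis, and Slc10a2 did the reverse. Slc10a1, the sodium-dependent carrier NTCP of the sinusoidal membrane, had 144, 197 and 229.5 CPM in Cirrhosis-PTH (lowest, median and highest), 38.2, 72.2 and 98.2 CPM in Cirrhosis and 201, 231 and 268 CPM in Control. The Cirrhosis livers lay below all others. The log2 changes were -1.67 ± 0.17 in Cirrhosis against Control, 1.40 ± 0.17 in Cirrhosis-PTH against Cirrhosis and -0.27 ± 0.17 in Cirrhosis-PTH against Control (adjusted p = 1.4e-07, 2.1e-06 and 0.37).

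Slco1a1, an organic anion carrier (OATP) of the same membrane, had the steepest fall of all members. It had 53.7, 76.9 and 87.6 CPM in Cirrhosis-PTH, 4.71, 11.7 and 15.7 CPM in Cirrhosis and 134, 260.1 and 309.6 CPM in Control. The 3 groups did not overlap. The log2 changes were -4.46 ± 0.29 in Cirrhosis against Control (adjusted p = 2.1e-09), 2.73 ± 0.27 in Cirrhosis-PTH against Cirrhosis (adjusted p = 5.0e-07) and -1.73 ± 0.26 in Cirrhosis-PTH against Control (adjusted p = 4.6e-04). Slco1a1, Slco1a4 and Slco1b2 are neighbours on chromosome 6, between 141629518 and 141946962 (GRCm38), and their sizes of change differed. Slco1b2 averaged 595 ± 27.5 CPM in Cirrhosis-PTH, 273 ± 65.9 CPM in Cirrhosis and 799.6 ± 144 CPM in Control (SD, n = 6 each), and did not pass in Cirrhosis-PTH against Control (log2 -0.43 ± 0.14, adjusted p = 0.067), while it passed without Control replicate 1 (adjusted p = 0.018), without Cirrhosis replicate 2 (adjusted p = 0.031), in DESeq2 (adjusted p = 0.032) and in a fit of those 12 libraries alone (adjusted p = 0.021).

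Slco1a4 changed by -0.96 ± 0.33 in Cirrhosis against Control (adjusted p = 0.022), or -0.84 without Cirrhosis replicate 1 (adjusted p = 0.0503). Its rise of 0.95 ± 0.33 in Cirrhosis-PTH against Cirrhosis (adjusted p = 0.029) did not hold when any of 7 single libraries was left out, namely Cirrhosis replicates 1, 2, 5 and 6 and Cirrhosis-PTH replicates 1, 5 and 6, with adjusted p-values up to 0.069. Nor did the rise hold without the filter on low counts (adjusted p = 0.057) or in a fit of only the 12 libraries compared (adjusted p = 0.067). Slco2b1 averaged 127 ± 16.1 CPM in Cirrhosis-PTH, 48.3 ± 9.05 CPM in Cirrhosis and 127 ± 17.6 CPM in Control (SD, n = 6 each).

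Slc10a2, the carrier ASBT that is known from the ileum and from cholangiocytes, had 7.17, 13.2 and 17.3 CPM in Cirrhosis-PTH, 16.2, 24.0 and 28.0 CPM in Cirrhosis and 3.82, 5.70 and 6.01 CPM in Control. Every liver given CCl4 lay above every Control liver, and the CCl4 groups overlapped. The log2 changes were 2.08 ± 0.18 in Cirrhosis against Control (adjusted p = 1.5e-08), -0.86 ± 0.17 in Cirrhosis-PTH against Cirrhosis (adjusted p = 5.1e-04) and 1.22 ± 0.18 in Cirrhosis-PTH against Control (adjusted p = 2.3e-04). Cholangiocyte markers moved with it. Of 10, 8 rose and 1 fell in Cirrhosis against Control, 3 fell and none rose in Cirrhosis-PTH against Cirrhosis, and 3 were higher and none lower in Cirrhosis-PTH than in Control. Their summed level was 35.6 to 93.9 CPM in Cirrhosis-PTH, 95.9 to 215 CPM in Cirrhosis and 28.3 to 55.7 CPM in Control, and their part in the level of Slc10a2 was not tested. Of 8 intestinal markers, Fabp6, Sis and Cdx2 had no count in any library, where 3 counts are worth 0.0233 to 0.0831 CPM, and 2 passed the filter on low counts. Vil1, villin, had at most 0.859 CPM in any library and was higher in Cirrhosis than in Control by 3.14 ± 0.52 and in Cirrhosis-PTH than in Control by 2.24 ± 0.52 (adjusted p = 3.2e-05 and 0.0083). Fabp2, the intestinal fatty acid binding protein, fell by 0.56 ± 0.20 in Cirrhosis against Control (adjusted p = 0.028). The 8 summed to 15.8 to 24.1 CPM in Cirrhosis-PTH, 12.6 to 27.7 CPM in Cirrhosis and 15.7 to 32.5 CPM in Control, and their part in the level of Slc10a2 was not tested.

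At the canalicular membrane, 5 of 6 members fell in Cirrhosis and rose in Cirrhosis-PTH against Cirrhosis. Abcb11, the bile salt export pump, had 199.5, 231 and 259 CPM in Cirrhosis-PTH (lowest, median and highest), 84.4, 102 and 107 CPM in Cirrhosis and 245, 307 and 449 CPM in Control. The Cirrhosis livers lay apart below, and the Cirrhosis-PTH livers overlapped the Control range at its low end. The log2 changes were -1.74 ± 0.13 in Cirrhosis against Control (adjusted p = 7.5e-10), 1.23 ± 0.13 in Cirrhosis-PTH against Cirrhosis (adjusted p = 1.5e-07) and -0.52 ± 0.12 in Cirrhosis-PTH against Control (adjusted p = 0.011).

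The sterol transporter subunits Abcg5 and Abcg8, which work as a pair to secrete cholesterol into bile and share the start region printed above, both fell in Cirrhosis and rose in Cirrhosis-PTH against Cirrhosis, and whether their changes differed was not tested. Abcg8 had 56.3, 70.8 and 78.0 CPM in Cirrhosis-PTH, 16.8, 21.8 and 29.5 CPM in Cirrhosis and 89.8, 102 and 119 CPM in Control, with no overlap between any 2 groups. Its log2 changes were -2.24 ± 0.11 in Cirrhosis against Control (adjusted p = 9.0e-12), 1.66 ± 0.11 in Cirrhosis-PTH against Cirrhosis (adjusted p = 9.2e-10) and -0.58 ± 0.11 in Cirrhosis-PTH against Control (adjusted p = 0.0013). Abcg5 had 54.5, 61.2 and 73.6 CPM in Cirrhosis-PTH, 15.2, 19.97 and 26.4 CPM in Cirrhosis and 63.3, 76.9 and 86.4 CPM in Control. It changed by -1.92 ± 0.12 and 1.65 ± 0.12 in the comparisons with Cirrhosis, and by -0.27 ± 0.11 in Cirrhosis-PTH against Control, which did not pass (adjusted p = 0.15). Exons of the 2 genes overlap by 82 bases on opposite strands, and whether the counting used strand is not given in the sources used here.

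Abcc2, the canalicular pump MRP2 for conjugated anions, and Abcb4, the phospholipid flippase that protects bile ducts, changed by small amounts. Abcc2 averaged 669 ± 16.7 CPM in Cirrhosis-PTH, 501 ± 48.1 CPM in Cirrhosis and 729 ± 71.4 CPM in Control (SD, n = 6 each). Abcb4 changed by -0.35 ± 0.11 in Cirrhosis against Control (adjusted p = 0.014), or -0.19 without Control replicates 7 and 8 (adjusted p = 0.22), and by 0.31 ± 0.11 in Cirrhosis-PTH against Cirrhosis (adjusted p = 0.033). The second call did not hold without Cirrhosis replicate 1, 2 or 5 or Cirrhosis-PTH replicate 2 or 4, with adjusted p-values up to 0.13. Nor did that call hold with other size factors, named RLE (adjusted p = 0.055). Atp8b1, the aminophospholipid flippase FIC1, had 34.4, 42.5 and 48.4 CPM in Cirrhosis-PTH, 39.1, 52.8 and 56.6 CPM in Cirrhosis and 43.7, 45.7 and 53.5 CPM in Control, with overlap throughout. Its change of -0.27 ± 0.09 in Cirrhosis-PTH against Cirrhosis passed (adjusted p = 0.028), and did not when any of 7 single libraries was left out, Cirrhosis replicates 1, 2, 5 and 6 and Cirrhosis-PTH replicates 1, 3 and 5, with adjusted p-values up to 0.080.

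Of the pumps of the basolateral membrane, which return bile acids to blood, Abcc4 rose steeply in Cirrhosis while Abcc3 fell. Abcc4, the pump MRP4, had 5.73, 6.84 and 8.07 CPM in Cirrhosis-PTH, 16.05, 42.1 and 82.3 CPM in Cirrhosis and 2.98, 3.43 and 4.93 CPM in Control. No 2 groups overlapped, with Cirrhosis-PTH between the others. It rose by 3.54 ± 0.30 in Cirrhosis against Control (adjusted p = 3.2e-08) and fell by 2.69 ± 0.28 in Cirrhosis-PTH against Cirrhosis (adjusted p = 8.8e-07). In Cirrhosis-PTH against Control the change of 0.85 ± 0.28 did not pass (adjusted p = 0.067), while it passed in DESeq2 (adjusted p = 0.0083), in the fit of those 12 libraries (adjusted p = 0.0014), without Cirrhosis replicate 2 (adjusted p = 0.011) and without Cirrhosis replicate 5 (adjusted p = 0.019). Abcc3, the pump MRP3, averaged 271 ± 38.4 CPM in Cirrhosis-PTH, 161 ± 15.1 CPM in Cirrhosis and 286 ± 26.4 CPM in Control (SD, n = 6 each), and changed by -0.83 ± 0.10 and 0.75 ± 0.10 in the comparisons with Cirrhosis.

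The 2 subunits of the organic solute transporter were near the limit of detection. Slc51a had 0.103 to 0.603 CPM in Cirrhosis-PTH, 0.183 to 0.528 CPM in Cirrhosis and 0.132 to 0.491 CPM in Control, from 6 to 68 counts per library, and passed in no comparison. Its exons overlap those of Pcyt1a on the opposite strand over 17.7% of their length, and Pcyt1a had a median of 64.4 CPM in Cirrhosis-PTH, 45.3 CPM in Cirrhosis and 63.2 CPM in Control. Slc51b had no count in 5 Cirrhosis-PTH, 4 Cirrhosis and 3 Control libraries and at most 15 counts in any.

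**Figure D4:**
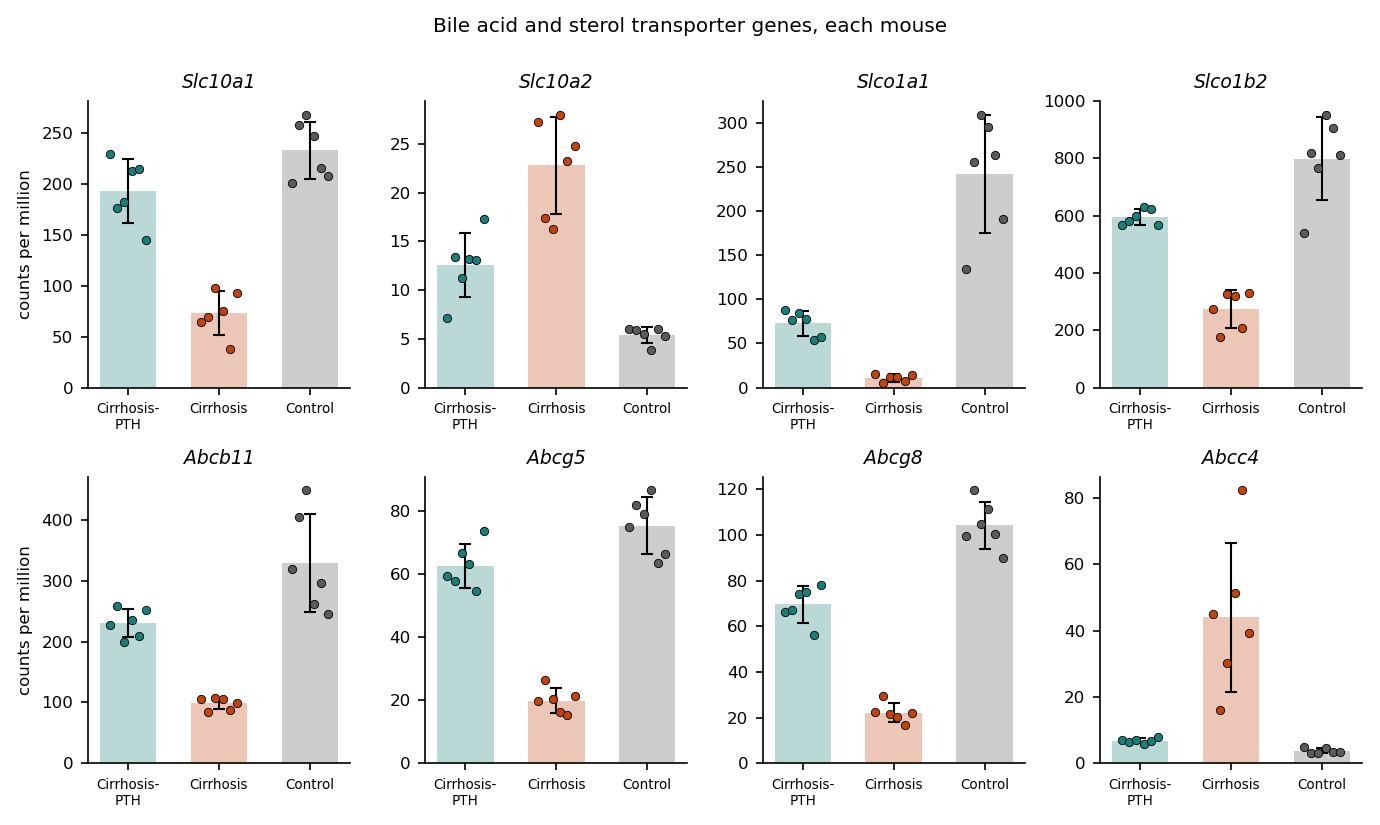
CPM of 8 transporter genes in every mouse (points), with the group mean (bar) and SD (line), n = 6 per group, and a linear axis from 0 for each gene. Slc10a1, Slco1a1, Slco1b2, Abcb11, Abcg5 and Abcg8 are lowest in Cirrhosis, and Slc10a2 and Abcc4 are highest there, at up to 28.0 and 82.3 CPM.

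Among the sensors, the receptor FXR and its target SHP both fell in Cirrhosis, and only FXR was called higher in Cirrhosis-PTH than in Cirrhosis. Nr1h4, which encodes FXR, had 76.1, 88.1 and 101 CPM in Cirrhosis-PTH (lowest, median and highest), 31.3, 47.2 and 60.9 CPM in Cirrhosis and 91.0, 104 and 116 CPM in Control. The Cirrhosis livers lay below all others. The log2 changes were -1.13 ± 0.11 in Cirrhosis against Control, 0.89 ± 0.11 in Cirrhosis-PTH against Cirrhosis and -0.24 ± 0.11 in Cirrhosis-PTH against Control (adjusted p = 3.8e-08, 1.6e-06 and 0.19).

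Nr0b2, which encodes SHP, had 4.99, 7.08 and 10.6 CPM in Cirrhosis-PTH, 3.80, 5.91 and 9.53 CPM in Cirrhosis and 9.80, 14.3 and 16.98 CPM in Control. All Cirrhosis livers lay below all Control livers, and the Cirrhosis-PTH livers overlapped both. Nr0b2 fell by 1.12 ± 0.24 on the log2 scale in Cirrhosis against Control (adjusted p = 5.9e-04). Cirrhosis-PTH against Cirrhosis gave 0.29 ± 0.24 (adjusted p = 0.37), and Cirrhosis-PTH against Control -0.84 ± 0.24 (adjusted p = 0.032). The last call did not hold without Control replicates 7 and 8 (adjusted p = 0.14) or without the filter on low counts (adjusted p = 0.062). It also did not hold without any 1 of Control replicates 2, 7 and 8 and Cirrhosis-PTH replicates 2, 3, 5 and 6, with adjusted p-values from 0.057 to 0.080. Whether Nr0b2 responded otherwise than Nr1h4 was not tested.

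Of the FGF15 receptor pair, Klb fell and rose while Fgfr4 passed in no comparison. Klb, the coreceptor β-Klotho, averaged 33.1 ± 2.60 CPM in Cirrhosis-PTH, 18.0 ± 5.41 CPM in Cirrhosis and 34.0 ± 4.16 CPM in Control (SD, n = 6 each), with log2 changes of -0.91 ± 0.16 in Cirrhosis against Control (adjusted p = 1.2e-04) and 0.88 ± 0.16 in Cirrhosis-PTH against Cirrhosis (adjusted p = 2.6e-04). Fgfr4 averaged 27.3 ± 3.17 CPM in Cirrhosis-PTH, 25.6 ± 4.53 CPM in Cirrhosis and 23.8 ± 3.04 CPM in Control, with changes from 0.09 to 0.20 in the 3 comparisons (adjusted p from 0.28 to 0.54). Fgf15, the ligand, which is known from the ileum, had no count in any library, which allows up to 0.0831 CPM in the shallowest of them.

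Gpbar1, the membrane receptor TGR5 of non-parenchymal cells, was read at 1 to 12 counts per library in Cirrhosis-PTH, 14 to 47 in Cirrhosis and 0 to 22 in Control. Its levels were 0.0108, 0.0467 and 0.154 CPM in Cirrhosis-PTH (lowest, median and highest), 0.116, 0.255 and 0.425 CPM in Cirrhosis and 0, 0.0423 and 0.223 CPM in Control, with overlap between all groups. The change of -2.07 ± 0.75 in Cirrhosis-PTH against Cirrhosis passed (adjusted p = 0.034), but not without the filter on low counts (adjusted p = 0.054) or when any of 8 single libraries was left out, Cirrhosis replicates 1, 4 and 6 and Cirrhosis-PTH replicates 2 to 6, with adjusted p-values up to 0.078. In Cirrhosis against Control, 1.79 ± 0.75 did not pass (adjusted p = 0.053), and without Control replicate 6, which held the 22 counts, it was 2.67 (adjusted p = 0.012). That call was also made without Cirrhosis replicate 2 (adjusted p = 0.048), without Cirrhosis replicate 3 (adjusted p = 0.048) and in DESeq2 (adjusted p = 0.029). Markers of recruited macrophages moved with it in the comparisons with Cirrhosis. Of 8, 8 rose in Cirrhosis against Control and 7 fell in Cirrhosis-PTH against Cirrhosis, and they summed to 118 to 235 CPM in Cirrhosis-PTH, 388 to 527 CPM in Cirrhosis and 45.9 to 91.5 CPM in Control. In Cirrhosis-PTH against Control, 7 of these 8 were higher and none lower, while Gpbar1 gave -0.28 ± 0.78 (adjusted p = 0.88). Of 8 Kupffer cell markers, 3 rose and 2 fell in Cirrhosis against Control, and 3 fell and none rose in Cirrhosis-PTH against Cirrhosis. In Cirrhosis-PTH against Control, 1 Kupffer cell marker was higher and 1 lower. The part of either cell type in the level of Gpbar1 was not tested.

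**Figure D5:**
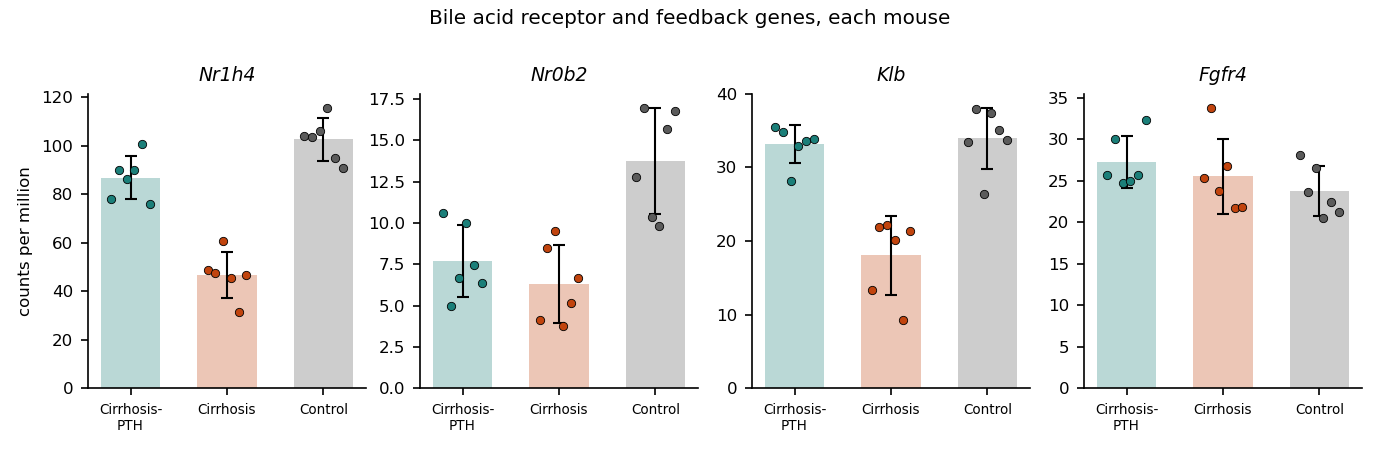
CPM of 4 bile acid sensing genes in every mouse (points), with the group mean (bar) and SD (line), n = 6 per group, and a linear axis from 0 for each gene. Nr1h4 and Klb are lowest in Cirrhosis, Nr0b2 of Cirrhosis-PTH mice (4.99 to 10.6 CPM) overlaps both other groups, and the Fgfr4 ranges of all groups overlap.

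Other genes of the same pathways, which are not members, were read from 3 lists. Over all tested genes, 25% fell and 25.5% rose in Cirrhosis against Control. In Cirrhosis-PTH against Cirrhosis 20.1% rose and 18.6% fell, and in Cirrhosis-PTH against Control 6.34% were higher and 2.48% lower. Of 18 tested genes of sterol and bile acid modification, 15 fell and 1 rose in Cirrhosis against Control, 15 rose and 1 fell in Cirrhosis-PTH against Cirrhosis, and 2 were higher and none lower in Cirrhosis-PTH than in Control. Sult2a8, a bile acid sulfotransferase of mouse liver, averaged 354 ± 47.1 CPM in Cirrhosis-PTH, 33.6 ± 13.7 CPM in Cirrhosis and 476 ± 112 CPM in Control (SD, n = 6 each). Acaa1a, a peroxisomal thiolase, was among the 15 in both comparisons with Cirrhosis, with log2 changes of -1.26 ± 0.11 in Cirrhosis against Control and 1.06 ± 0.11 in Cirrhosis-PTH against Cirrhosis. Fdx1, the ferredoxin that supplies electrons to Cyp27a1, changed by -1.33 ± 0.10 and 1.12 ± 0.10 in the same comparisons.

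Of 18 tested regulators, 14 fell and 2 rose in Cirrhosis against Control, 14 rose and 1 fell in Cirrhosis-PTH against Cirrhosis, and 1 was higher and 3 lower in Cirrhosis-PTH than in Control. Ppara, the fatty acid receptor, averaged 161 ± 10.8 CPM in Cirrhosis-PTH, 81.5 ± 10.4 CPM in Cirrhosis and 189.9 ± 6.71 CPM in Control (SD, n = 6 each). Rxra, the partner with which FXR binds DNA, changed by -0.85 ± 0.07 in Cirrhosis against Control and 0.86 ± 0.07 in Cirrhosis-PTH against Cirrhosis. Nr1d1, the circadian repressor REV-ERBα, changed by -1.63 ± 0.12 and 0.96 ± 0.12, and was one of the 3 lower in Cirrhosis-PTH than in Control, at -0.67 ± 0.12 (adjusted p = 0.0013).

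Of 16 genes of other transport and of the canalicular membrane, 8 fell and 5 rose in Cirrhosis against Control. In Cirrhosis-PTH against Cirrhosis 6 rose and 5 fell, and in Cirrhosis-PTH against Control 3 were higher and none lower. Their median log2 changes in the comparisons with Cirrhosis were -0.25 and 0.03, against 0.02 and -0.003 over all tested genes. Abcc1, the pump MRP1, went in the same directions as Abcc4 in the comparisons with Cirrhosis, with 5.52 ± 1.3 CPM in Cirrhosis-PTH, 16.9 ± 2.41 CPM in Cirrhosis and 3.02 ± 0.747 CPM in Control (SD, n = 6 each), and it was called higher in Cirrhosis-PTH than in Control, at 0.87 ± 0.17 (adjusted p = 0.0018). Rdx, radixin, which anchors canalicular pumps to actin, changed by -0.95 ± 0.07 in Cirrhosis against Control and 0.71 ± 0.07 in Cirrhosis-PTH against Cirrhosis. Abcc6 changed by -1.34 ± 0.11 and 1.24 ± 0.11.

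Across the 3 comparisons together, 18 members were called lower in Cirrhosis than in Control, higher in Cirrhosis-PTH than in Cirrhosis and not called in Cirrhosis-PTH against Control. These held all 5 side chain and conjugation genes, 4 of the 6 uptake carriers (Slc10a1, Slco1a4, Slco1b2 and Slco2b1), Cyp7a1, Akr1d1, Cyp27a1, Abcc2, Abcb4, Abcg5, Abcc3, Nr1h4 and Klb. A further 7 were lower, then higher, and also lower in Cirrhosis-PTH than in Control, namely Hsd3b7, Cyp8b1, Akr1c6, Cyp7b1, Slco1a1, Abcb11 and Abcg8. The comparisons share libraries, so these groupings are descriptions of 1 set of 18 mice. How many of all tested genes had the same joint patterns was not counted, so the groupings are not set against other genes.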

How the data were processed

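Liver total RNA, depleted of ribosomal RNA, was sequenced from 18 mice. The counts per gene are as deposited by the authors, unnormalized, on GRCm38 per the submitters' processing notes, which list HISAT2 2.2.1, StringTie 2.1.5 and cutadapt 4.2 without roles. The strand setting, annotation release and any filter are not given in the sources used here. Groups came from the sample labels. The 34 members, the gene lists and the tests were chosen with earlier results of these data known.

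edgeR 4.0.16 (R 4.3.3) fitted all 3 groups together with TMM scaling, its default filter on low counts (21914 genes left) and a robust quasi-likelihood test, with Benjamini-Hochberg adjustment over all of those genes. The same steps were tested on simulated data. DESeq2 1.42.0, other size factors, filters and subsets of libraries were alternatives. Full ranges are given for Cyp7a1, Abcb11, Slc10a1, Nr1h4 and Nr0b2, for the member of each role with the largest absolute log2 change in each comparison, and for members called against the direction of most. Abcg5 was added with its promoter. From each list of other pathway genes, the 3 with the smallest p in any comparison are named. Counting error and the spread between mice both limit precision, most for genes with few counts.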

Additional observations from a re-analysis of the deposited data

Results flagged for a closer look

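In 9 of the 102 sets of 6 libraries examined for the members, 1 library stood apart from the other 5 by Dixon's ratio. The threshold was set to flag about 1 set in 20 by chance. The sets share libraries, and the flagged sets of Slc51b held mostly libraries without a count, so the 9 cannot be judged against that rate. Control replicate 1 accounted for 4 of the 9. It had 79.54 CPM of Cyp7b1, where the other 5 Control livers had 184.6 CPM or more, and 14.14 CPM of Cyp39a1, where they had 5.57 to 7.37 CPM. It also had 1611 CPM of Scp2, against 1889 to 2024 CPM in the others, and 77.38 CPM of Amacr, against 87.3 to 92.7 CPM. Control replicate 6 had 3.823 CPM of Slc10a2, where the others had 5.29 to 6.01 CPM.

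Cirrhosis replicate 3 had 62.43 CPM of Slco1a4, where the other Cirrhosis livers had at most 31.2 CPM, and this liver also had the highest Cyp7a1 and Cyp8b1 of its group. Cirrhosis-PTH replicate 3 had 28.15 CPM of Klb, where the others had 33.0 to 35.5 CPM. Slc51b stood apart in Cirrhosis-PTH replicate 5, at 0.1563 CPM where the others had no count, and in Cirrhosis replicate 2, at 0.07759 CPM.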

How the results depend on the processing

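The alternatives gave 2474 gene values, of which 2370 had the same direction and side of the threshold, 57 no longer passed, 13 newly passed and 34 changed sign. Called members ranged from 22 to 25 higher in Cirrhosis-PTH against Cirrhosis, and when 1 library was left out the lower ones ranged from 2 to 4. All gene values that changed sign were of members that had not passed, and the cause was not tested. Replicate numbers did not pair the mice (correlations of same-numbered deviations from -0.064 to 0.051). Numbers 7 and 8 occur in Control alone, so with the replicate block those libraries do not inform the comparisons with Control. The block is therefore not a check separate from leaving them out. With the replicate block, 1 member was called higher in Cirrhosis-PTH than in Control, where 2 were without it, since Cyp39a1 did not pass (1.15, adjusted p = 0.074). Cyp8b1 and Nr0b2 were not called lower there with the block (-1.48 and -0.61, adjusted p = 0.19 and 0.35), nor were Abcb4 lower in Cirrhosis against Control (-0.25, adjusted p = 0.14) and Slco1a4 higher in Cirrhosis-PTH against Cirrhosis (1.07, adjusted p = 0.0505). The block gave Slc51a as -0.096 in Cirrhosis against Control. In Cirrhosis-PTH against Control the block gave 0.0067 for Amacr, 0.067 for Abcb4, -0.43 for Slc51a and 0.066 for Klb. Without Control replicates 7 and 8, Slc51a was -0.0011 in Cirrhosis against Control, and in Cirrhosis-PTH against Control it was -0.22 and Abcb4 0.097. Without the filter on low counts, Slco1a4 was 0.013 and Slco2b1 0.010 in Cirrhosis-PTH against Control, and without ribosomal RNA loci Slco1a4 was 0.0011. With 1 library left out, the same comparison ranged from -0.14 to 0.10 for Slco1a4, -0.068 to 0.052 for Slco2b1, -0.093 to 0.019 for Abcb4, -0.21 to 0.20 for Slc51a, -0.099 to 0.0075 for Klb and -0.74 to 0.60 for Gpbar1. Without the 2 mice farthest from the median of Cyp7a1, its r was -0.012 with Nr0b2 in Cirrhosis-PTH, -0.041 with Nr0b2 in Cirrhosis, -0.98 with Cyp8b1 in Control, and -0.59 and -0.51 with Dbp in Cirrhosis and Control. Spearman's rho with Cyp8b1 in Control was -0.20. Low counts limit Gpbar1, Slc51a and Slc51b most.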

Other observations

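Ratios of levels per kb of exon between members were looked at after their values were seen, and are given as descriptions with no test. Cyp8b1 per Cyp7a1, the branch to cholic acid set against the first step, had a median of 0.576 in Cirrhosis-PTH (0.341 to 1.06), 0.999 in Cirrhosis (0.804 to 3.95) and 2.22 in Control (1.67 to 4.50). Thus every Cirrhosis-PTH liver lay below every Control liver in this ratio, and Cirrhosis overlapped both. Abcc4 per Abcb11, basolateral against canalicular export, had a median of 0.0254 in Cirrhosis-PTH, 0.329 in Cirrhosis and 0.0103 in Control. Slc10a2 per Slc10a1 had a median of 0.0329 in Cirrhosis-PTH, 0.17 in Cirrhosis and 0.0128 in Control.

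Ch25h, the cholesterol 25-hydroxylase, named after its values were seen, was the gene of sterol modification that rose in Cirrhosis against Control (log2 5.48 ± 0.83) and fell in Cirrhosis-PTH against Cirrhosis (log2 -4.12 ± 0.71), by edgeR with 6 mice per group. Markers of recruited macrophages summed to 118 to 235 CPM in Cirrhosis-PTH, 388 to 527 CPM in Cirrhosis and 45.9 to 91.5 CPM in Control, and their part in the level of Ch25h was not tested.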
